A study of Mus musculus with 6 samples.

Results

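The Hox genes encode transcription factors with a homeodomain, and in the mouse they lie in 4 clusters, Hoxa on chromosome 6, Hoxb on 11, Hoxc on 15 and Hoxd on 2. Members were taken as the rows of the deposited gene table that are protein coding and named Hoxa, Hoxb, Hoxc or Hoxd followed by a number, which gave 40 of 54532 rows. These carry 39 symbols, because Hoxd4 is listed under 2 identifiers. The Hoxa cluster holds 11 of the rows, Hoxb 10, Hoxc 9 and Hoxd 10. The paralogue number in each name gives the position in the cluster, and genes with the same number in different clusters are related by descent.

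RNA was sequenced from mouse cardiosphere-derived cells of the epicardium, taken from the heart ventricle of C57BL/6 animals and immortalized with human telomerase (hTERT), at passage 30. There were 3 control libraries (control) and 3 libraries of cells induced with 5-azacytidine, an inhibitor of DNA methylation (induced). Induced cells received 10 µM of the drug for 3 days and were then, according to the labels, kept for 4 weeks in IMDM with 2% FBS, while the methods of the study give another basal medium and a shorter time. Both groups carry the hTERT transgene and come from a single immortalized line, so the 3 libraries of a group are no independent isolations. How long and in which medium the sequenced control cells were kept is not stated, so drug, serum and time in culture cannot be told apart.

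Along the body axis, genes of low paralogue number act in anterior regions and those of high number in posterior regions, and adult mesenchymal cells in culture keep part of this code. In the heart, early progenitors that respond to retinoic acid express anterior Hox genes such as Hoxb1 and Hoxa3. Hox proteins bind DNA together with PBX and MEIS homeodomain proteins, and whole clusters are held silent by Polycomb complexes and kept active by MLL complexes. Paralogues 1 to 3 are called anterior here, 4 to 8 central and 9 to 13 posterior.

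In control cells, the anterior and central Hoxa genes and Hoxb2 to Hoxb4 carried nearly all of the Hox expression, Hoxb5 to Hoxb9 and the posterior Hoxa genes were low, and Hoxc and Hoxd were nearly silent. In induced cells, the posterior genes Hoxc13 and Hoxa10 were higher by 18.1-fold and 5.2-fold, Hoxa3 was lower by 2-fold, and the other called changes were at most 2.44-fold. The summed level of all Hox genes, per length, was 37.3 ± 1.02 FPKM in control and 39.0 ± 1.09 FPKM in induced libraries (SD, n = 3), and the groups overlapped.

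The 250 bases before the start of 5 transcripts are printed with every CG, the dinucleotide whose cytosine is methylated in mammals, in capitals. They come from RefSeq, build GRCm38.p6, in the direction of the gene. For Hoxa3 and Hoxd13 the start after the window was not found in a transcript of the gene in the GENCODE M21 annotation. The Hoxa3 window lies inside the gene as deposited, and the Hoxd13 window ends some bases before the deposited start. Hoxa10 is shown with both of its starts because it was the more abundant of the 2 posterior genes that rose, Hoxa3 because it showed the largest fall, Hoxb4 because it had the highest level, and Hoxd13 because it had no read in any library.
Hoxa10, start inside the gene, chr6:52234940-52235189, minus strand: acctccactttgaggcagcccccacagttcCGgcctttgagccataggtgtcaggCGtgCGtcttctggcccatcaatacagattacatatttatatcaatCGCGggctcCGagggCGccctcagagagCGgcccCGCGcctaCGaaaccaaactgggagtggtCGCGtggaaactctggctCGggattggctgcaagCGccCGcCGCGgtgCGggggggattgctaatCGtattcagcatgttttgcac
Hoxa10, start at the end of the gene as deposited, chr6:52240855-52241104, minus strand: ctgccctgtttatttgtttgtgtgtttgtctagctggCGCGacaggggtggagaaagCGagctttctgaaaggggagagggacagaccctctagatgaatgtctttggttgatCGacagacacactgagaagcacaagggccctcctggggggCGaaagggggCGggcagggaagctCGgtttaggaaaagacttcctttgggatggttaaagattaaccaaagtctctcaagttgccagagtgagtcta
Hoxa3, chr6:52213068-52213317, minus strand: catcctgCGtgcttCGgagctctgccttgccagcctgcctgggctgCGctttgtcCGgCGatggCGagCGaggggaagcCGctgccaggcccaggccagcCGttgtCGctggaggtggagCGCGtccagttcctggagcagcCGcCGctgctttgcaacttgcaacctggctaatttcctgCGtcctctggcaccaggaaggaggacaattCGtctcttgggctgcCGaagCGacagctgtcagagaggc
Hoxb4, chr11:96318017-96318266, plus strand: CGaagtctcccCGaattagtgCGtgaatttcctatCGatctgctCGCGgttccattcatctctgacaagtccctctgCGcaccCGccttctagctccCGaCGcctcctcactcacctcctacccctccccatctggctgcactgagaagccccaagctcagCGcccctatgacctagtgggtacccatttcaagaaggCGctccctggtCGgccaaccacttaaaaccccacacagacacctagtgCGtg
Hoxd13, chr2:74667975-74668224, plus strand: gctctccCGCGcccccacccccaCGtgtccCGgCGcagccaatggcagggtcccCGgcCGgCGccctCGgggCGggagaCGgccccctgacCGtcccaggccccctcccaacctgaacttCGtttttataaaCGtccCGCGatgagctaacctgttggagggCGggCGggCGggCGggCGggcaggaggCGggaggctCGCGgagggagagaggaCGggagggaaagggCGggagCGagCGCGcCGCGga

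The Hoxa10 windows hold 20 and 7 CG, the Hoxa3 window 18, the Hoxb4 window 14 and the Hoxd13 window 31. Windows were at hand for 22 Hox genes, 24 in all, with a median of 12.5 CG (range 2 to 35), while the median over all 32851 windows was 6 and 92.1% of them held at least 1 CG. The 8 windows of Hox genes with over 100 reads in the 6 libraries held 6 to 28 CG and the 13 windows of Hox genes with at most 12 reads held 2 to 31, so the ranges overlapped. Counts are per gene and do not say which start of Hoxa10 was used, and methylation was not measured in this comparison. Hoxc13 had no window.

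Total counts were 19041133 to 19823369 per library, of which 1859 to 1962 reads fell on Hox genes. With 0 reads, a gene may still be present at up to 3 counts, which is 0.151 to 0.158 CPM (counts relative to the total of the library) and covers counting error only. Of the markers of cardiosphere-derived cells Thy1, Eng and Ly6a, all 3 were expressed in every library, at group means of 17.7 FPKM or more. In induced cells Thy1 and Eng were higher and Ly6a was lower, at 26 FPKM in control and 17.7 FPKM in induced libraries. All 6 epicardial markers were tested, and 5 were higher and 1, Tbx18, was lower in induced cells. Over all genes tested, 32.6% were higher and 32.2% lower. The summed level of the 6 epicardial markers was 490 to 501 CPM in control and 1985 to 2164 CPM in induced libraries. Most of this sum came from Upk3b (means of 254 CPM in control and 942 CPM in induced libraries) and Upk1b (117 and 766 CPM). Of 10 cardiomyocyte, 8 endothelial and 6 leukocyte markers, 1, 1 and 0 were abundant enough to be tested, and Nkx2-5, the early cardiac homeobox gene, had 2 reads in control and 0 in induced libraries. In these bulk samples, fewer cells of a type and less RNA per cell cannot be told apart.

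**Figure D1:**
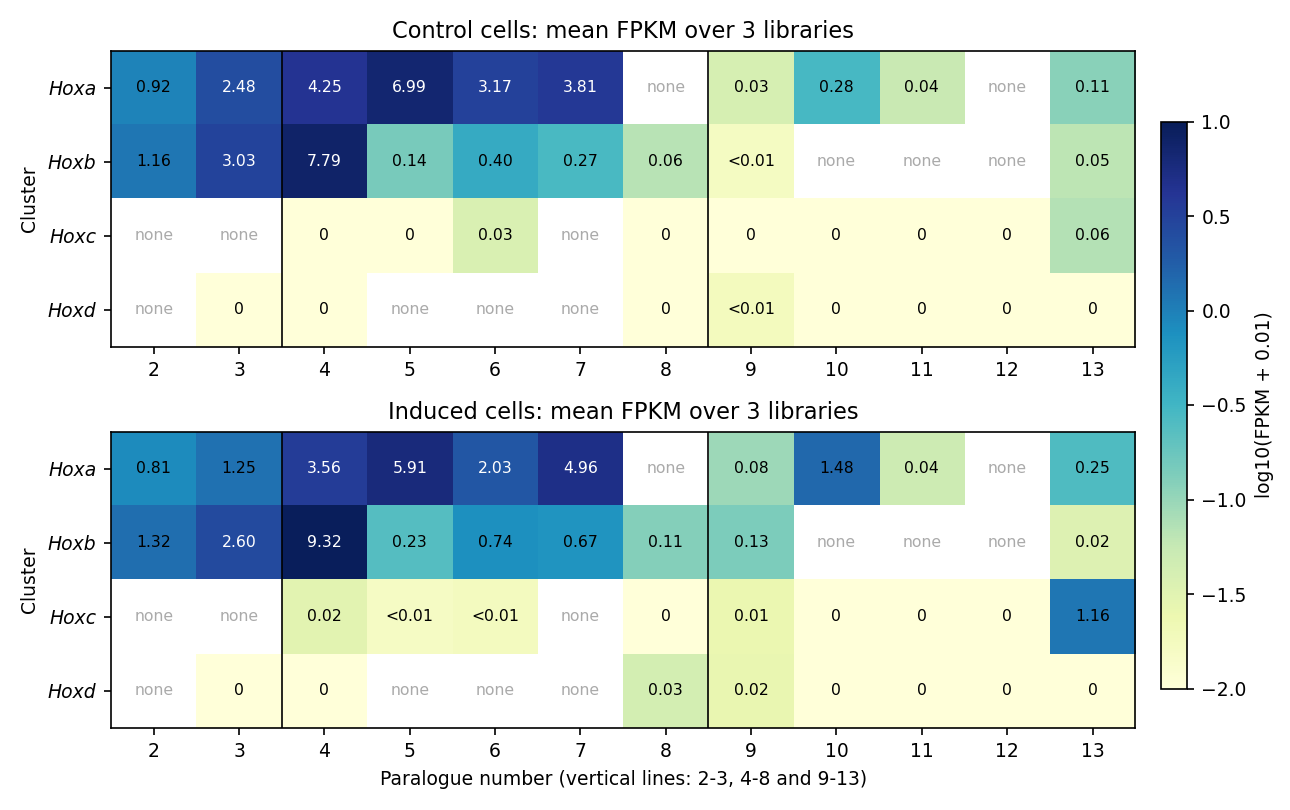
Mean FPKM (fragments scaled to gene length and library depth, over 3 libraries) of each Hox gene, with clusters as rows and paralogue numbers 2 to 13 as columns, in control cells (top) and induced cells (bottom). The word none marks paralogues that the cluster does not have, and colour is log10(FPKM + 0.01). Hoxb4 is the highest gene in both panels (7.79 and 9.32 FPKM), and Hoxc13 goes from 0.0610 to 1.16 FPKM beside silent neighbours.

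Levels between genes are compared as FPKM, which is scaled to gene length. At least 1 FPKM was reached by 9 Hox genes in control and 11 in induced cells, the additional genes being Hoxa10 and Hoxc13. The order in control cells began with Hoxb4 at 7.79 ± 0.41 FPKM and Hoxa5 at 6.99 ± 0.240 FPKM, whose libraries did not overlap. Hoxa4 (4.25 ± 0.564 FPKM) and Hoxa7 (3.81 ± 0.163 FPKM) followed and overlapped each other, as did Hoxa6 (3.17 ± 0.299 FPKM) with Hoxb3 (3.03 ± 0.0875 FPKM), while Hoxa3 (2.48 ± 0.188 FPKM) lay below Hoxb3 without overlap. In induced cells Hoxb4 (9.32 ± 0.395 FPKM), Hoxa5 (5.91 ± 0.391 FPKM), Hoxa7 (4.96 ± 0.465 FPKM) and Hoxa4 (3.56 ± 0.681 FPKM) came first, in that order, without overlap between neighbours. Hoxb3, Hoxa6, Hoxa10, Hoxb2, Hoxa3 and Hoxc13 were lower, and each of them overlapped the next. Thus Hoxa7 stood after Hoxa4 in control cells and before it in induced cells.

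The comparison asked which Hox genes differ between induced and control cells. Enough reads for the test across all genes were found for 15 of the 40 rows, 8 in Hoxa, 6 in Hoxb, 1 in Hoxc and 0 in Hoxd. In the quasi-likelihood test of edgeR, adjusted by the Benjamini-Hochberg method over 14246 genes, 6 of the 15 were higher in induced cells, 4 were lower and 5 were not called. That is 66.7% called, while 64.8% of all tested genes were called, 32.6% as higher and 32.2% as lower, so the share of Hox genes called was close to that of all genes. A change of at least 2-fold was called as higher for 3 of the 15 (Hoxc13, Hoxa10 and Hoxb7) and as lower for 1 (Hoxa3), against 9.29% and 7.83% of all tested genes. The groups did not overlap for 12 of the 15, against 68.6% of all tested genes. The count of 4 lower genes was 1 with DESeq2 and 1 to 3 when 1 library was left out (1 without control library 2 or 3 or induced library 3). The median log2 fold change was 0.17 over the 15 Hox genes and -0.01 over all genes tested. A gene that is high in only 1 group passes the filter through that group, so these counts do not stand for all members. Hoxc13, Hoxb7 and Hoxb5 met the count filter only because of their induced libraries.

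**Figure D2:**
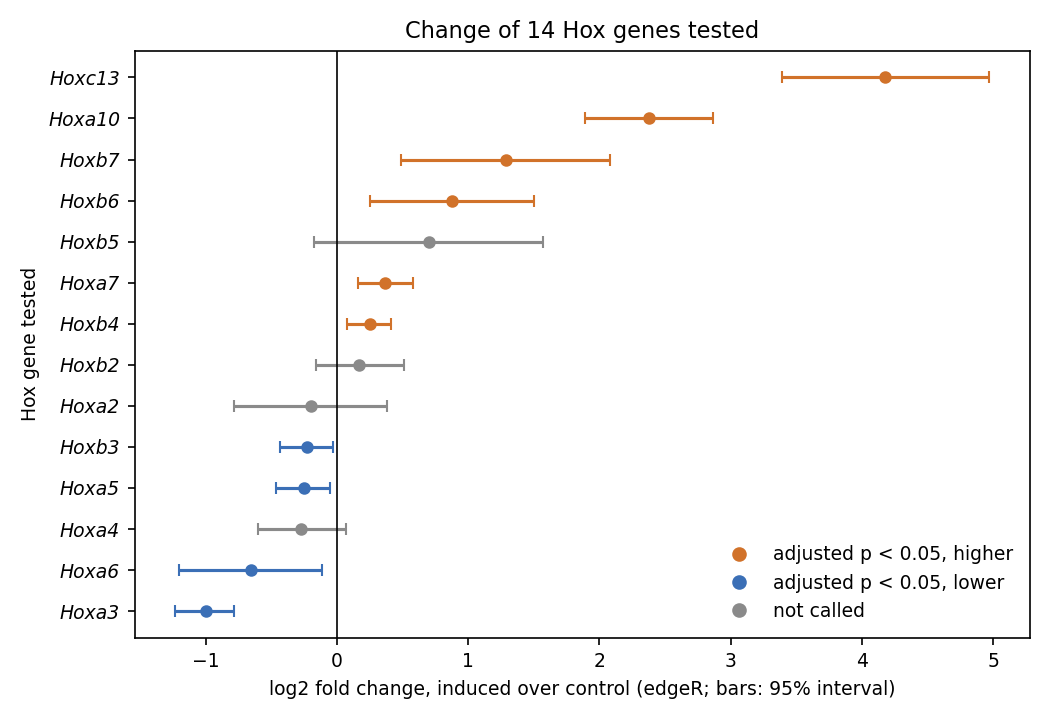
Log2 fold change of induced over control for 14 of the 15 Hox genes tested (points, edgeR) with the 95% interval (bars). Orange points passed an adjusted p of 0.05 as higher, blue points as lower, and grey points did not pass. Hoxc13 (4.18) and Hoxa10 (2.38) lie farthest to the right, and Hoxa3 (-1.0) farthest to the left.

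Among the Hox genes tested, the largest differences were those of the posterior genes Hoxc13 and Hoxa10. Hoxc13 (chr15:102921103-102928814, ENSMUSG00000001655), the most posterior gene of the Hoxc cluster and required for hair and nail formation, had 4, 2 and 3 reads in control libraries and 50, 64 and 49 reads in induced libraries. Every induced library was above every control library. The level was 0.0610 ± 0.0203 FPKM in control and 1.16 ± 0.176 FPKM in induced libraries, and the log2 fold change was 4.18 with a standard error of 0.37 (edgeR adjusted p = 1.49e-08). With only 9 reads in the control group, the pooled ratio of reads was 18.4 with a 95% counting interval from 9.46 to 41.0. Hoxc13 met the count filter through its induced libraries alone, so its place among the tested genes depends on the group where it is high. A rise at least as large was seen for 173 of all tested genes (1.21%).

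Hoxa10 (chr6:52231197-52240854, ENSMUSG00000000938), which patterns the lumbar spine and the uterus and acts in blood progenitors, had 13, 19 and 23 reads in control and 88, 85 and 103 reads in induced libraries. The groups were far apart, at 0.281 ± 0.0758 and 1.48 ± 0.15 FPKM. The log2 fold change was 2.38 with a standard error of 0.23 (edgeR adjusted p = 5.25e-08), and 3.12% of all tested genes rose at least as much. None of the exon bases of Hoxa10 or Hoxc13 are shared with another annotated gene.

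The other 14 posterior rows were too low to be tested, and 7 of them had no read at all. Together they had 20, 12 and 9 reads in control and 28, 35 and 29 reads in induced libraries, so the groups did not overlap. Hoxb9, which acts in the thoracic region, had 0, 1 and 0 reads in control and 10, 5 and 4 reads in induced libraries, a pooled ratio of 19.3 with a counting interval from 3.07 to 802. When low genes were not filtered out it was the seventh Hox gene to be called higher (log2 fold change 3.87, edgeR adjusted p = 0.00322), at a background of 19.9% of 25705 genes. Hoxa13, which patterns the distal limb and the genital tubercle, had 16 reads in control and 35 in induced libraries, and Hoxa9, a gene of blood progenitors, had 10 and 26. Neither passed without the filter (edgeR adjusted p = 0.0858 and 0.0937). Hoxa11 had 6 reads in control and 5 in induced libraries and Hoxb13 had 7 and 3, so the small differences did not all point one way.

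Over all 16 posterior rows, the summed level was 0.591 ± 0.0626 FPKM in control and 3.19 ± 0.197 FPKM in induced libraries. As a share of the summed level of all Hox genes this was 1.59% ± 0.213 and 8.20% ± 0.487, with no overlap. The anterior sum was 9.84 ± 0.0239 FPKM in control and 8.17 ± 0.718 FPKM in induced libraries, also without overlap, and its share went from 26.4% ± 0.698 to 21% ± 1.30. The central sum was 26.9 ± 1.07 and 27.6 ± 0.579 FPKM, with overlap. These sums were not tested, and a sum is set mostly by its most abundant members, Hoxa10 and Hoxc13 among the posterior genes.

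**Figure D3:**
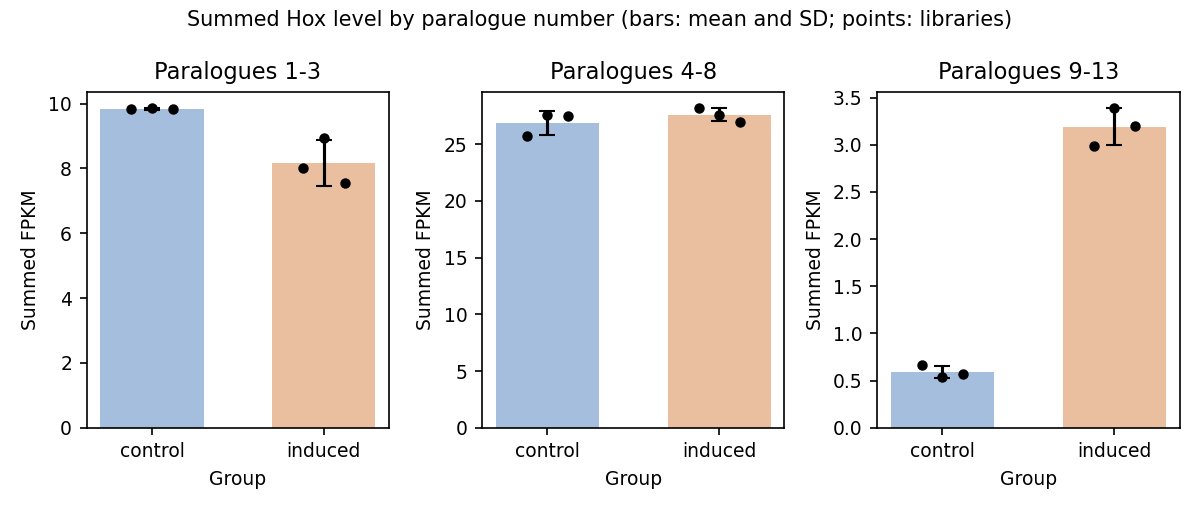
Summed FPKM of Hox genes of paralogue numbers 1 to 3, 4 to 8 and 9 to 13, in control and induced libraries, each panel on its own scale starting at 0. Bars are means over 3 libraries with the SD, and points are libraries. The posterior sum is 0.591 FPKM in control and 3.19 FPKM in induced cells, and only the central sums overlap.

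Of the 5 anterior genes tested, 0 were higher by edgeR, 2 were lower and 3 were not called, beside 32.6% higher and 32.2% lower over all genes tested. The count of 0 higher also held at an unadjusted p under 0.05 and with DESeq2. Hoxa3 (chr6:52169062-52213336, ENSMUSG00000079560), which builds pharyngeal arch organs such as the thymus and the carotid vessels, had 286, 281 and 326 reads in control and 136, 151 and 140 reads in induced libraries. Its level was 2.48 ± 0.188 FPKM in control and 1.25 ± 0.0619 FPKM in induced libraries. The log2 fold change was -1.0 with a standard error of 0.11 (edgeR adjusted p = 1.45e-07). The exons of Hoxa3 share 27.1% of their bases with other annotated genes, among them 5730596B20Rik on the opposite strand, which had 100 reads in control and 27 in induced libraries. Since the library kit does not mark strand, reads of the overlapping part cannot be told apart.

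Hoxb3, the related gene of the Hoxb cluster, had 265, 251 and 255 reads in control and 214, 208 and 208 reads in induced libraries. It fell by 0.23 on the log2 scale with a standard error of 0.10 (edgeR adjusted p = 0.0422), a call lost in 11 of 16 alternative settings, the median-ratio size factors (adjusted p = 0.0519) among them. Its exons share 52.9% of their bases with the antisense gene Hoxb3os, which was not called (81 reads in control and 103 in induced libraries).

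Hoxb2, a hindbrain and facial nerve gene, had 74, 83 and 85 reads in control and 92, 82 and 88 reads in induced libraries (log2 fold change 0.17, interval -0.16 to 0.51). Hoxa2, which specifies the second pharyngeal arch, had 98 reads in control and 82 in induced libraries (log2 fold change -0.20, interval -0.78 to 0.38). Hoxb1, a marker of early heart and hindbrain progenitors, had 0 reads in every library, as did Hoxd1 and Hoxd3.

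Of 8 central genes tested, 4 were higher, 2 were lower and 2 were not called, which is 75% called against 64.8% of all genes tested. Hoxb4 (chr11:96318267-96321638, ENSMUSG00000038692), known for expanding blood stem cells, had 377, 398 and 423 reads in control and 463, 434 and 466 reads in induced libraries. It was the highest Hox gene in all 6 libraries, and its rise was small, with a log2 fold change of 0.25 with a standard error of 0.08 (edgeR adjusted p = 0.00979). Hoxa7, a gene of the thoracic vertebrae, had 229, 212 and 215 reads in control and 297, 253 and 262 reads in induced libraries. Its log2 fold change was 0.37 with a standard error of 0.10 (edgeR adjusted p = 0.00388), and it shares 20.4% of its exon bases with the antisense gene Hoxaas3.

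Hoxb7 and Hoxb6, which act in the trunk and limb mesoderm, were low in both groups. Hoxb7 had 7, 7 and 11 reads in control and 24, 18 and 17 reads in induced libraries (log2 fold change 1.29, standard error 0.38, edgeR adjusted p = 0.00611). Its place among the tested genes depends on the induced libraries, where it is high, and it was not tested under the stricter filter. Hoxb6 had 17, 13 and 17 reads in control and 26, 27 and 30 reads in induced libraries (log2 fold change 0.88, standard error 0.30, edgeR adjusted p = 0.0160), a call lost without control library 2 (adjusted p = 0.0672) or induced library 3 (0.0546). Hoxb5, which acts in enteric neurons and the lung, had 23 reads in control and 36 in induced libraries and was not called (log2 fold change 0.70, 95% interval -0.17 to 1.57). Over Hoxb5 to Hoxb9, an unbroken run of 5 genes in the cluster, the reads were 33, 31 and 41 in control and 75, 68 and 71 in induced libraries, without overlap. This run was not a planned class and crosses the border between central and posterior genes. It includes Hoxb8 and Hoxb9, which were too low to be tested, so its sum is a description only.

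Hoxa5, needed for the lung and the respiratory tract, had 253, 270 and 263 reads in control and 205, 227 and 200 reads in induced libraries. It fell by 0.25 on the log2 scale with a standard error of 0.10 (edgeR adjusted p = 0.0310). Hoxa6, a gene of the thoracic region, had 50, 55 and 61 reads in control and 44, 37 and 20 reads in induced libraries. It fell by 0.65 with a standard error of 0.26 (edgeR adjusted p = 0.0343). Both are small or uneven: without the third induced library, where Hoxa6 was lowest, its log2 fold change was -0.38 and the call was lost (edgeR adjusted p = 0.196), and the call of Hoxa5 was lost in 8 of 16 alternative settings. Hoxa4, a gene of the neck vertebrae, had 122, 155 and 129 reads in control and 84, 115 and 125 reads in induced libraries and was not called (log2 fold change -0.27, interval -0.60 to 0.07).

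**Figure D4:**
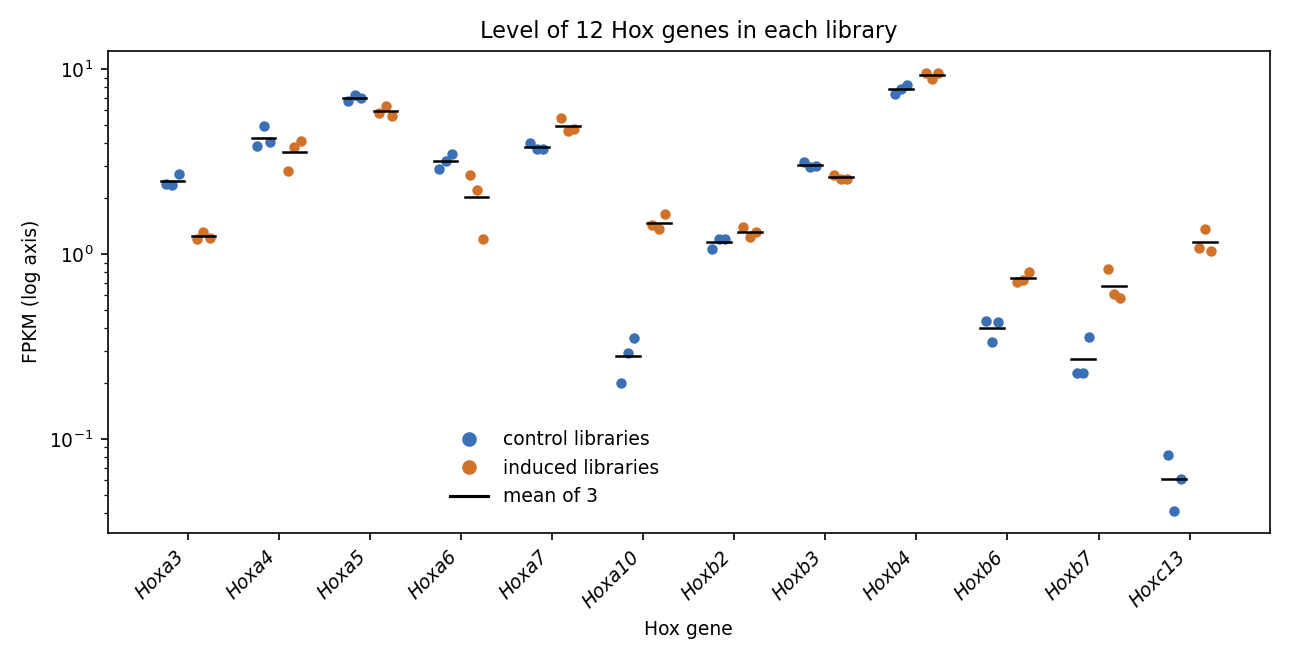
FPKM of 12 Hox genes (log axis) in each of the 3 control libraries (blue) and 3 induced libraries (orange), with the mean of each group as a line. Hoxc13, Hoxa10, Hoxb6 and Hoxb7 show induced libraries well above control libraries, Hoxa3 shows the opposite, and the groups overlap for Hoxa4.

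By cluster, Hoxa had 2 genes higher, 3 lower and 3 not called of 8 tested, and Hoxb had 3 higher, 1 lower and 2 not called of 6. These are 62.5% and 66.7% called, close to the 64.8% of all genes tested. Summed over the cluster, Hoxa was at 24.3 ± 0.777 FPKM in control and 22.6 ± 1.33 FPKM in induced libraries, with overlap. Hoxb was at 12.9 ± 0.460 FPKM in control and 15.1 ± 0.606 FPKM in induced libraries, without overlap. In raw reads, Hoxa had 1105 to 1151 in control and 969 to 1051 in induced libraries, apart from each other. Hoxb had 754 to 804 and 794 to 844 raw reads, which overlapped. Raw reads are scaled neither to gene length nor to the depth of the library, so their overlap is not comparable with that of the FPKM sums. In FPKM, the Hoxb share of the summed Hox level went from 34.6% ± 0.867 to 38.9% ± 2.26, and that of Hoxa from 65.2% ± 0.971 to 57.9% ± 1.91.

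The ratio of Hoxa to Hoxb reads was then taken for each paralogue number with reads of both genes, whether or not they were tested, which gave 8 pairs. The induced minus control difference of the mean log2 ratio was -0.39 for Hoxa2 over Hoxb2, -0.77 for Hoxa3 over Hoxb3, -0.52 for Hoxa4 over Hoxb4, -0.94 for Hoxa5 over Hoxb5, -1.59 for Hoxa6 over Hoxb6 and -0.90 for Hoxa7 over Hoxb7. In the posterior class it was -1.85 for Hoxa9 over Hoxb9 and 1.6 for Hoxa13 over Hoxb13, both from few reads. Hoxb5, Hoxb6 and Hoxb7 were also low, with 23, 47 and 25 reads in control and 36, 83 and 59 in induced libraries. The ratio was thus lower in induced libraries in 7 pairs and higher in 1, and the groups overlapped for Hoxa2 over Hoxb2 and for Hoxa13 over Hoxb13. Of all single genes tested, 68.6% also did not overlap, so separation is common in these data. Such a share was not computed for ratios. With 3 libraries against 3, the smallest p of the two-sided exact permutation test is 0.1, which 6 pairs reached (0.133 adjusted over 8 pairs), while Hoxa2 over Hoxb2 gave 0.2 and Hoxa13 over Hoxb13 gave 0.3. The design thus cannot reach 0.05 for a single pair, and pairs share their libraries. A ratio shows unequal change within a pair and not which gene changed.

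The Hoxc cluster was silent apart from Hoxc13. Reads of its other 8 genes came to 4 in control and 7 in induced libraries, with Hoxc8, Hoxc10, Hoxc11 and Hoxc12 at 0 in every library. The 7 other rows annotated within the cluster, among them the noncoding RNA Hotair, also had 0 reads. On either side of the cluster, none of the nearest tested genes was called higher in induced cells, beside 32.6% of all genes tested. A share over so few genes says little. Calcoco1 was at -0.33, Atp5g2 at -0.62, Smug1 at -0.08 and Cbx5 at -0.35 on the log2 scale. Over 561 tested genes of chromosome 15 the median log2 fold change was -0.24, while the chromosomes of Hoxa, Hoxb and Hoxd had medians of -0.03, 0.03 and 0.02. Measured against the median of its chromosome, Hoxc13 was still called higher.

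In the Hoxd cluster, Hoxd8 had 0 reads in control and 1, 2 and 2 reads in induced libraries, and Hoxd9 had 1 read in control and 2 in induced libraries. The other 8 rows had 0 reads in every library, as did the 10 other rows annotated within the cluster. Hoxd3 and Hoxd4 share 62.8% and 52.3% of their exon bases with each other and with further genes, and reads that fit more than 1 gene may have been left out of the counts. The flanking genes Lnpk and Mtx2 were expressed, with log2 fold changes of 0.03 (not called) and 0.20 (edgeR adjusted p = 0.0263). Across all 4 clusters, 13 rows had no read in the 6 libraries, and 12 rows with reads were too low to be tested, with 54 reads in control and 119 in induced libraries.

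Noncoding genes of the clusters were mostly too low to test. Of 20 listed, 16 were in the table, 8 had reads and 4 were tested, of which 1 was lower and 0 were higher by edgeR, so 25% were called against 64.8% of all genes tested (0 higher also at an unadjusted p under 0.05 and with DESeq2). Hoxaas3, antisense to the middle of the Hoxa cluster, had 13, 21 and 19 reads in control and 8, 9 and 10 reads in induced libraries (log2 fold change -0.90, edgeR adjusted p = 0.0431), a call lost with DESeq2 (adjusted p = 0.123). Hotairm1, a noncoding RNA of the Hoxa cluster, had 235 reads in control and 269 in induced libraries (log2 fold change 0.26, edgeR adjusted p = 0.236). 5730596B20Rik, which overlaps Hoxa3, had a log2 fold change of -1.81 (edgeR adjusted p = 0.000425) and is, beside Hoxaas3, the other row within the Hoxa cluster outside the Hox genes that was lower. Of 24 tested protein-coding neighbours of the clusters, 7 were higher and 8 lower (62.5% called, close to the 64.8% of all genes tested) with a median log2 fold change of -0.07, led by Hnrnpa1 (-1.25), Nfe2l1 (0.82) and Atp5g2 (-0.62). Hnrnpa1 has near-identical copies in the genome, so its count is uncertain.

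Hox proteins act with cofactors of the PBX, MEIS and PREP families, and all 9 of these genes were expressed and tested. In induced cells 2 were higher, 6 were lower and 1 was not called, with a median log2 fold change of -0.41, beside 32.6% higher, 32.2% lower and a median of -0.01 over all genes tested. Meis1, which stabilizes Hox binding to DNA, had 2060, 1948 and 2081 reads in control and 866, 1055 and 886 reads in induced libraries (log2 fold change -1.06, standard error 0.07, edgeR adjusted p = 1.03e-10). Pknox2, a PREP family gene, had 722, 694 and 703 reads in control and 352, 323 and 325 reads in induced libraries (log2 fold change -1.02, standard error 0.07, edgeR adjusted p = 5.69e-10). Meis2 went the other way, with 517, 524 and 488 reads in control and 799, 934 and 762 reads in induced libraries (log2 fold change 0.77, standard error 0.08, edgeR adjusted p = 7.74e-08). For none of these 3 genes did the groups overlap. Per length, Meis1 was at 9.65 ± 0.292 FPKM in control and 4.67 ± 0.5 FPKM in induced libraries.

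Regulators that act before Hox genes were also measured. Of the tested members, 76.2% of the activating chromatin factors, 71.4% of the repressing ones and 78.6% of the retinoic acid genes were called, against 64.8% of all genes tested. Of 21 tested chromatin factors that keep Hox genes active, 5 were higher and 11 lower with a median log2 fold change of -0.16, led by the elongation factor gene Aff4 (0.77), Psip1 (-0.50) and the MLL partner Men1 (-0.46). Of 28 factors that repress Hox genes, Polycomb and DNA methylation genes, 6 were higher and 14 lower with a median of -0.19. Among the latter, Uhrf1 and Dnmt1, which maintain DNA methylation, had log2 fold changes of -1.92 and -1.26, and the Polycomb gene Phf19 one of -2.30. Of 14 tested genes of retinoic acid signalling, 6 were higher and 5 lower with a median of 0.01, and Aldh1a1, which makes retinoic acid, rose by 2.52 while the receptors Rarg and Rara fell by 0.65 and 0.59. Aldh1a2 of the same list went the other way than Aldh1a1, with 26, 48 and 52 reads in control and 5, 7 and 9 in induced libraries. Cdx1, Cdx2 and Cdx4, which activate central Hox genes in the embryo, had 0 reads in every library, and the 6 genes of the Cdx and ParaHox list had 2 reads in all. All log2 fold changes of single genes given here had edgeR adjusted p-values of at most 1.25e-06.

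**Figure D5:**
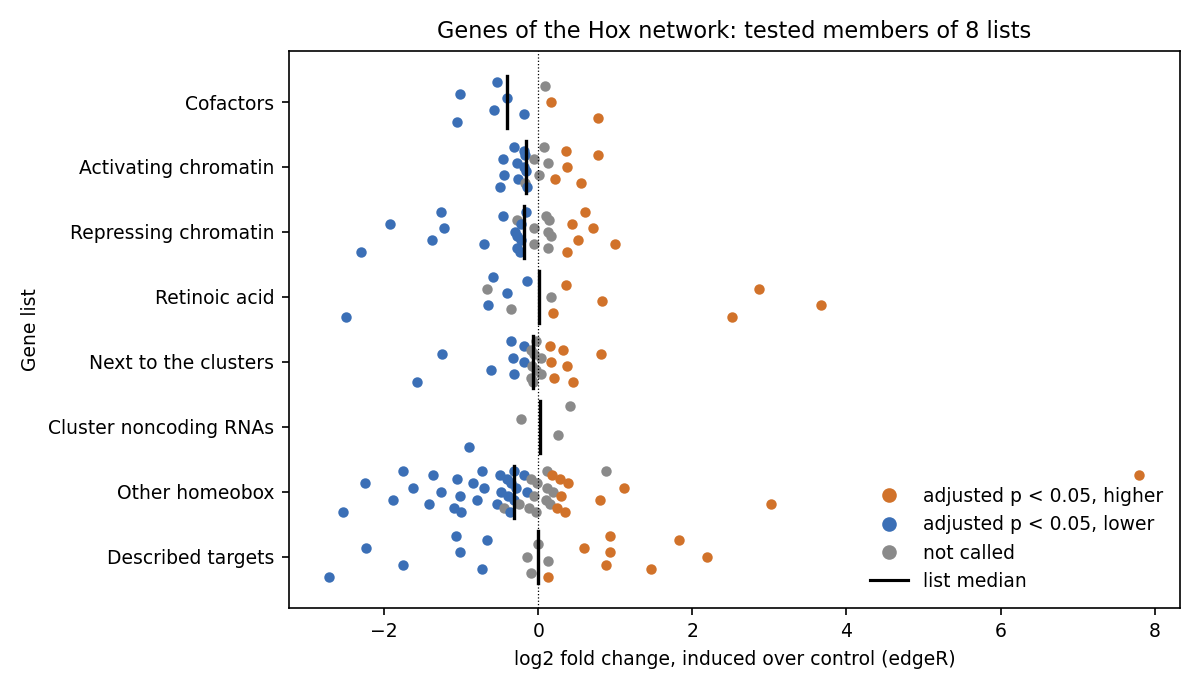
Log2 fold change of induced over control for the tested members of 8 lists of genes around the Hox clusters, 1 point a gene. Orange and blue points passed an adjusted p of 0.05 as higher and lower, grey points did not, and black lines are list medians. Most cofactors lie left of 0, with a median of -0.41, and Rhox5 is the point at 7.80 among other homeobox genes.

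Homeobox genes outside the clusters were listed as well. Of 146 in the table, 51 were tested, of which 10 were higher and 28 lower, with a median log2 fold change of -0.32. Called in either direction were 74.5% of them, against 64.8% of all genes tested. Prrx1 and Prrx2, genes of limb and heart mesenchyme, fell by 1.89 and 2.25 (edgeR adjusted p = 5.57e-16 and 2.48e-13). Rhox5, an X-linked homeobox gene of reproductive tissues, had 1 read in control and 125, 73 and 98 reads in induced libraries, a pooled ratio of 301 with a counting interval from 53.5 to 11915. Of 19 tested genes described as Hox targets, 8 were higher and 7 lower (78.9% called) with a median of -0.01, led by Dcn (2.19), Vcam1 (-1.02) and Vegfa (0.93). Among 8 markers of limb and trunk mesenchyme, 4 were tested, and Emx2 (1.11) and Pax1 (2.77) were higher while Tbx15 (-0.08) and En1 (-0.09) were not called. Pax1 was low, with 2, 1 and 6 reads in control and 26, 17 and 18 in induced libraries, and met the count filter through the latter. The summed level of these 8 markers was 37.7 to 38.8 CPM in control and 41.8 to 46.7 in induced libraries, and whether another cell population had a part in the posterior Hox values was not tested.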

How the data were processed

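The authors deposited 1 table with raw read counts per gene for 6 libraries, whole numbers without normalization, with the gene length in bases and FPKM values. In the deposited FPKM each count is scaled by the length of the gene and a single depth per library, 0.980 to 1.03 times the total count. The submitters' processing notes name HISAT2 2.0.5, featureCounts 1.5.0-p3, DESeq2 1.16.1 and mm10, the methods name DESeq with fewer replicates than the table holds, and the strand setting is not given in the sources used here. The kit does not mark strand. The authors' log2 fold changes, p-values and Gene Ontology tables were not used.

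Counts were tested in R 4.3.3 with edgeR 4.0.16 (two-sided quasi-likelihood test, TMM scaling, filterByExpr with a minimum count of 10 and a minimum total of 15), induced against control, without covariates, over 14246 genes with 99.9% of the reads. Calls have a Benjamini-Hochberg adjusted p under 0.05. Standard errors were derived from each fold change and the F statistic of its test. Overlap between groups was read from TMM-scaled CPM for genes and from the values themselves for sums and ratios. Log2 ratios of paralogue reads used 0.5 added reads. Intervals of pooled reads are exact 95% binomial intervals and cover counting error only. Exon overlap was computed from GENCODE M21, in which 38 of 40 Hox rows had the same coordinates. Levels are mean ± SD over 3 libraries.

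The Hox genes, their classes and the lists were chosen with earlier results of these data known. Values per library are given for the 10 members with the highest mean FPKM and the 5 largest rises and falls among called members, 12 genes in all, and fold changes from each list for up to 3 members with the smallest p. One further Hox gene that met this rule and one cofactor gene are not reported here, and both stay in all counts, sums and medians. Other genes named, such as Hoxb9, Hoxa13, Emx2, Aldh1a2 and 5730596B20Rik, were chosen after their values were seen. Every pair of libraries of a group differed by more than sampling noise (chi-square per degree of freedom 2.56 to 8.91). The labels name separate samples and not separate cultures, so p-values measure the spread between these samples, which may be technical. In counts simulated for the same genes with few of them changed, unchanged genes made up somewhat more of the edgeR calls than the nominal share. In the real data 64.8% of tested genes were called, so that share does not carry over directly. Calls near 0.05 are still to be taken with caution. Alternatives were median-ratio size factors, library totals, the chromosome median as offset, no filter, a stricter filter, DESeq2 1.42.0, leaving out 1 library at a time, a replicate block, a threshold of 0.01, and limma 3.58.1 on log2 FPKM with 1 or 0.1 added.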

Additional observations from a re-analysis of the deposited data

How the results depend on the processing

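Across 191 alternative values for 12 named Hox genes, 164 kept their direction and their side of the threshold, and 27 kept the direction and lost the call. Hoxc13, Hoxa10, Hoxa3, Hoxa7, Hoxb4 and Hoxb7 kept their calls in each alternative that tested them. Hoxb3 lost its call in 11 of 16, Hoxa5 in 8, Hoxa6 in 5 and Hoxb6 in 3. The number of Hox genes called lower, 4, was 2 without a filter, 1 with DESeq2, 1 at an adjusted p of 0.01, and 1 to 3 when libraries were left out (1 without control library 2 or 3 or induced library 3, and 2 without induced library 1). The number called higher stayed between 5 and 7. The median over tested Hox genes, 0.17, was 0.70 without a filter, where 27 members entered, -0.04 under the stricter filter, where 13 entered, 0.10 with limma on log2(FPKM + 1), and 0.12 to 0.23 when libraries were left out. The pseudocount of 1 FPKM brought Hoxc13 to 1.02 and Hoxa10 to 0.95. Over all genes 9225 were called, and 7783 to 9765 in the alternatives. Libraries of the same number did not deviate together (correlations -0.00, -0.02 and 0.03 over 14246 genes), so the numbers do not pair the samples, and with the replicate block 9063 genes, 6 higher and 3 lower Hox genes were called. Depth limits the Hoxc and Hoxd clusters and most posterior genes, where a few reads decide a value.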
